A study of Mus musculus with 8 samples.

Results

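Pools 3 and 4 of the Brg1 mutant embryos were set against pools 1 and 2 of the same labelled group, 4 of the 8 arrays of the series. The series title places the study in the activation of the zygotic genome and the part maternal BRG1 plays in it. Each sample was total RNA of 20 whole mouse embryos at the 2-cell stage, either wild type (4 pools) or Brg1 mutant (4 pools), and the labels call the pools biological replicates. The labels used here give neither strain, allele, means of deletion and age of the mothers nor the treatment of the embryos before lysis. The members were the arrays that the labels number 3 and 4, and 1 and 2, among the mutants, so each side held 2 pools. Wild type pools took no part in the contrast and their signals are printed beside it as levels.

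The labels put all 4 mutant pools in 1 group, and the pairs were proposed with the array values known. The adjusted p of a gene therefore only sets its difference against the spread inside the pairs. It supports nothing about why the pairs differ. An exact two-sided permutation of 4 arrays into 2 pairs cannot go below p = 0.333, so array measures are given as values with no test.

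BRG1, encoded by Smarca4, is the ATPase motor of BAF chromatin remodelling complexes, which move nucleosomes. At the 2-cell stage the mouse embryo lives on transcripts stored in the egg, degrades them, and begins to transcribe its own genome. In the ovarian follicle the egg is surrounded by granulosa cells, which make inhibin and activin subunits and estradiol, and which turn to progesterone synthesis when they luteinize after ovulation. The granulosa cells next to the egg, the cumulus, are ovulated with it in a matrix of hyaluronan and versican. The lists of marker genes below cover these cells and others that lie near an egg or embryo.

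The mutant pairs stood apart over the array as a whole. Across the 22518 probe sets tested, log2 signals of pools 3 and 4 correlated at r = 0.971 and those of pools 1 and 2 at r = 0.897, while the 4 correlations across the pairs were 0.692 to 0.728. These correlations are across genes, which are not independent replicates. Pools 1 and 2 correlated with the wild type arrays at 0.8291 to 0.889, and pools 3 and 4 at 0.695 to 0.708. Array controls moved with the pairs too. The hybridization controls, bacterial and phage transcripts, averaged a signal of 8504 and 5951 in pools 1 and 2, 2192 and 1261 in pools 3 and 4, and 1324 to 2181 in wild type. The ratio of 3′ to 5′ actin signal, a measure of how far cRNA reached toward the 5′ end, was 12.9 and 15 against 7.04 and 4.88, and 16.3 to 21.1 in wild type. The same ratio for Gapdh was 6.63 and 6.76 against 6.94 and 7.33, with 8.58 to 10.1 in wild type. The part of these measures in the differences below was not tested.

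**Figure D1:**
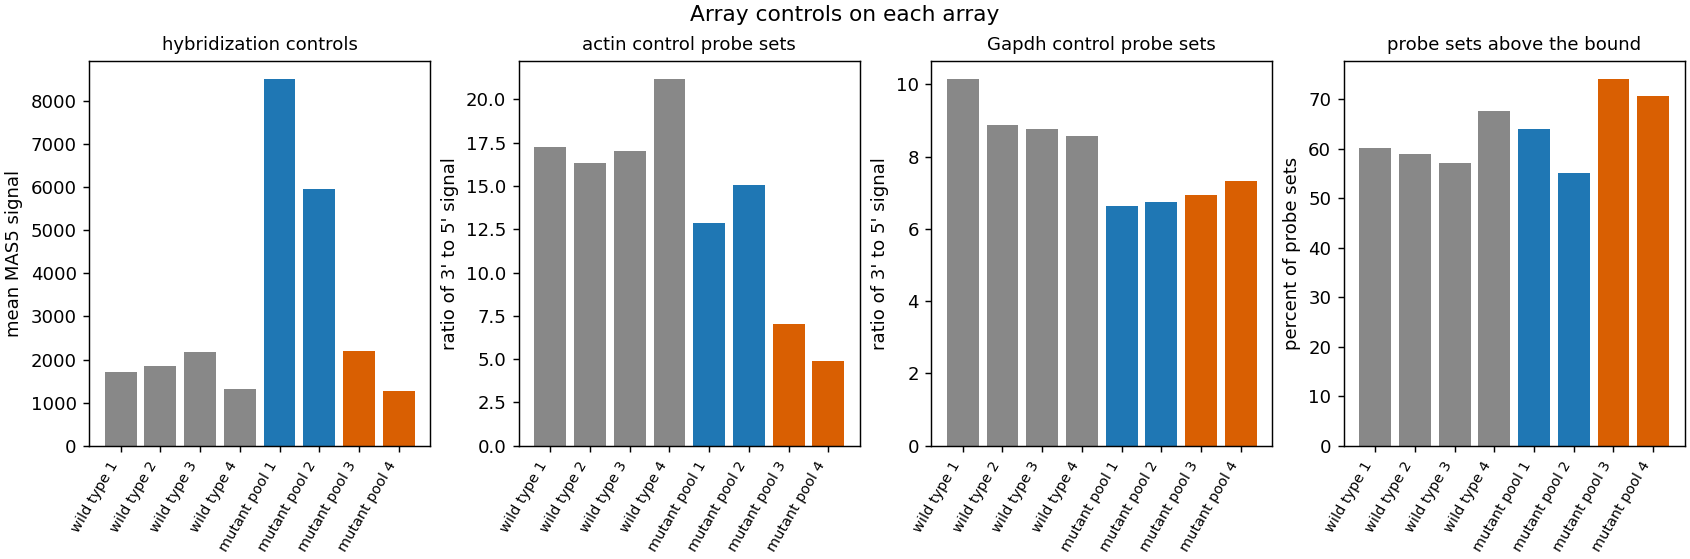
Array controls on each of the 8 arrays, as bars from 0: mean MAS5 signal of the hybridization controls, ratio of 3′ to 5′ signal for the actin and for the Gapdh control probe sets, and percent of probe sets above the array's background bound. Grey is wild type, blue mutant pools 1 and 2, orange mutant pools 3 and 4. Hybridization controls were highest in pools 1 and 2 (8504 and 5951), and the actin ratio was lowest in pools 3 and 4 (7.04 and 4.88).

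The markers given for the contrast were Hsd3b1, Inha, Vim and S100a6, and each read at least 2364 in pools 3 and 4 and at most 116 in the other 6 pools. The promoters of Hsd3b1, Vim and S100a6 are shown because these genes were given as markers. Their shared step in pools 3 and 4 goes with that choice and is no separate finding. Each is the 250 bases before the gene's start on its own strand, from RefSeq with build GRCm38.p6; the table's Inha window lies inside the annotated gene and is not shown. Capitals mark matches, on either strand, to 3 motifs: the CCAAT box, the TATA box (letters TATAAA) and a GATA site (letters AGATAA).
Hsd3b1 (chr3:98859795-98860044, minus strand): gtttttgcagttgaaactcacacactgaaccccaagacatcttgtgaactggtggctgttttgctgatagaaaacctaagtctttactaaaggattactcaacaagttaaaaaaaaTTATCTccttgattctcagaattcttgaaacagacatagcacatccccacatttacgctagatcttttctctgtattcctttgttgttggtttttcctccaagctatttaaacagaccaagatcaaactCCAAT
Vim (chr2:13574061-13574310, plus strand): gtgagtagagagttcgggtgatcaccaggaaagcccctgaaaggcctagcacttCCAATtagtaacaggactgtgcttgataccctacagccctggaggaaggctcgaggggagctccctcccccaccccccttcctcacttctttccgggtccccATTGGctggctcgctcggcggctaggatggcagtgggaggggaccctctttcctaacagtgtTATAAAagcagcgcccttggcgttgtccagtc
S100a6 (chr3:90612644-90612893, plus strand): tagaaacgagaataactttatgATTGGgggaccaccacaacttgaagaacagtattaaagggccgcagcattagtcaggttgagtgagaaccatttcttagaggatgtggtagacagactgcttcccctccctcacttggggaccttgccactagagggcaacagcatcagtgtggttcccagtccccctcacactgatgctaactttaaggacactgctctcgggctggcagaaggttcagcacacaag

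CCAAT was the match found in all 3 promoters, and 33.8% of the 32851 RefSeq promoters held it in the same window. TATAAA was found in the Vim promoter, 32 bases before the start, and in 12.4% of all promoters. The GATA site was found in the Hsd3b1 promoter and in 9.99% of all. Further motifs were found in none of these windows: the nuclear receptor site AGGTCA is in 14% of all promoters, the AP-1 site TGANTCA is in 6.75%, and the GC box GGGCGG is in 32.7%. No match overlapped another. A match describes these letters and is no evidence of a bound factor.

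Hsd3b1 encodes the enzyme that converts pregnenolone to progesterone. Its signal was 32.7, 9.7, 7 and 9.3 in the 4 wild type pools, 20.1 and 50.5 in mutant pools 1 and 2, and 8835 and 6889 in pools 3 and 4 (log2 difference 7.94, SE 0.44, limma adjusted p = 0.000307, n = 2 pools a side). Pools 3 and 4 lay far above all 6 other pools. Inha encodes the inhibin alpha subunit, a secreted product of granulosa cells. It read 89.7, 115, 61.2 and 78.6 in wild type, 78.6 and 116 in pools 1 and 2, and 2619 and 2364 in pools 3 and 4 (log2 difference 4.70, SE 0.29, limma adjusted p = 0.000372). Pools 1 and 2 lay inside or next to the wild type range, and pools 3 and 4 were 26-fold above them.

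Vim encodes vimentin, the intermediate filament protein of mesenchymal and granulosa cells. Its brightest probe set read 16.1, 17.1, 8.3 and 5.3 in wild type, 31.1 and 21.5 in pools 1 and 2, and 4526 and 3107 in pools 3 and 4 (log2 difference 7.18, SE 0.32, limma adjusted p = 0.000229). The name of this probe set ends in _x_at, which marks probes that can bind other transcripts. Both other Vim probe sets passed in the same direction, with log2 differences of 9.90 and 7.83. S100a6 encodes calcyclin, a small calcium-binding protein. It read 25.2, 14.3, 13.1 and 1.9 in wild type, 5.3 and 24.4 in pools 1 and 2, and 4281 and 3503 in pools 3 and 4. Each array has 27 control probe sets for unspiked Bacillus genes, whose 95th percentile served as its background bound, and S100a6 was under it in both pools 1 and 2. Such a gene is given as the mean of pools 3 and 4 over the mean bound of pools 1 and 2, which makes S100a6 at least 121-fold higher, with limma's adjusted p at 0.000665. All 4 markers passed, as did 27.3% of all probe sets tested, and each kept its direction and call under every one of the 14 alternatives that held its probe set (13 for Vim). In pooled embryos, fewer cells of a type and less RNA of each cell cannot be told apart, and all signals are relative to arrays scaled to the same trimmed mean.

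**Figure D2:**
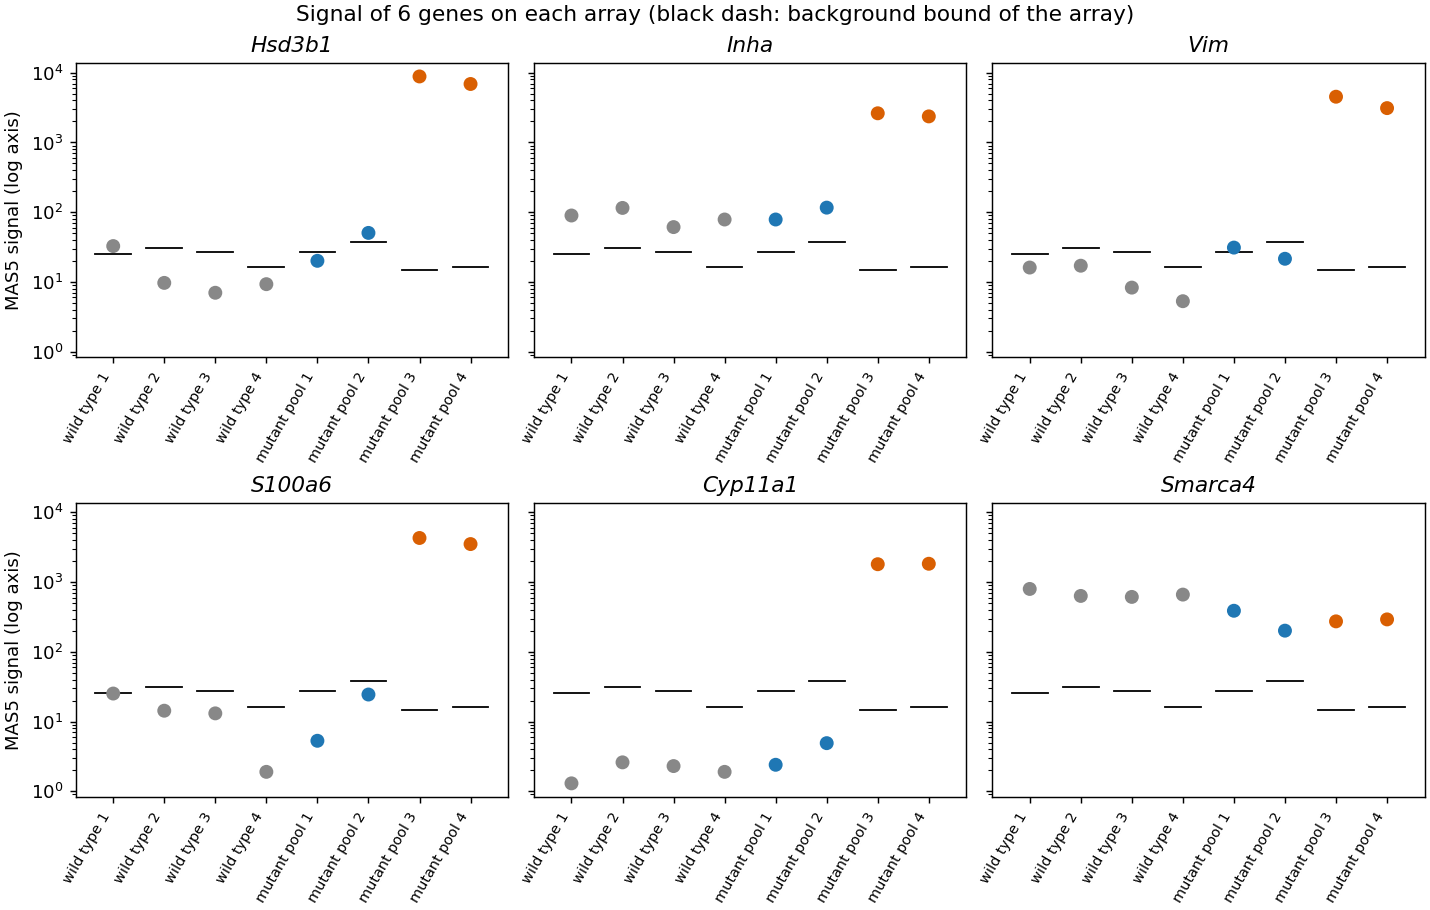
MAS5 signal on a log axis for 6 genes on each of the 8 arrays; each point is 1 pool of 20 embryos and the black dash is the background bound of that array. Hsd3b1, Inha, Vim, S100a6 and Cyp11a1 read at least 1801 in pools 3 and 4 and at most 116 in the other 6 pools, while Smarca4 read between 201 and 388 in all 4 mutant pools.

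Over all tested probe sets, 3242 were higher and 2911 lower in pools 3 and 4 at a limma adjusted p under 0.05. That is 14.4% and 12.9% of those tested, 27.3% in all. They stood for 1853 genes higher (15.6% of 11906) and 1636 lower (13.7%), 29.3% in all, and counts in the gene lists below are read against these shares. The sizes were uneven. At least 4-fold differences were estimated for 1640 higher and 197 lower probe sets, at least 16-fold for 313 and 2, and at least 64-fold for 73 and 0. The median difference of all genes tested was -0.15 on the log2 scale, with pools 3 and 4 the lower side. Of the probe sets called, 52.7% were higher, and this share was 65.2% with arrays centred on their medians and 40.8% with arrays centred on the 75th percentile. The counts were larger without pool 1 or pool 2 and smaller without pool 3 or pool 4. A fit that leaves out 1 array takes its spread only from the pair left whole. Pools 1 and 2 (r = 0.897) were less alike than pools 3 and 4 (r = 0.971). A call or count lost without pool 3 or pool 4, here and below, therefore does not show that it rested on that pool. No probe set was called in the opposite direction in any of these fits.

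Set against the wild type levels, higher and lower probe sets fell differently. Of the 3242 higher probe sets, 3013 (92.9%) had pools 3 and 4 above all 4 wild type arrays and 612 (18.9%) had pools 1 and 2 below all of them. Of the 2911 lower probe sets, 2161 (74.2%) had pools 3 and 4 below all wild type arrays and 1416 (48.6%) had pools 1 and 2 above all of them. Over all tested probe sets the same shares were 29.2%, 13.8%, 31.4% and 22.7%. For most higher probe sets pools 3 and 4 thus lay beyond wild type. Among lower ones a larger share than among higher ones had pools 1 and 2 beyond it. Both held for 435 higher (13.4%) and 759 lower (26.1%) probe sets. Calls were chosen by the difference between the pairs, so an excess over the shares of all probe sets is partly fixed by that choice. These shares were not tested against each other.

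**Figure D3:**
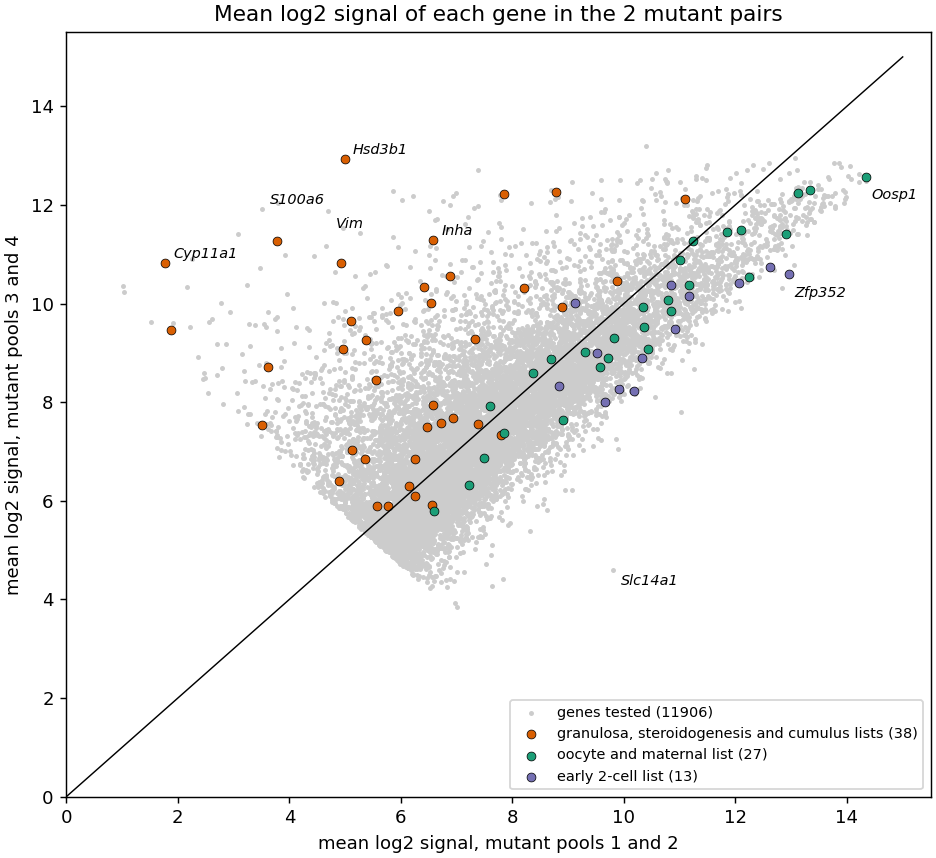
Mean log2 signal of each of 11906 genes in mutant pools 1 and 2 (x axis) and pools 3 and 4 (y axis), with the line of equality; coloured points are tested members of the lists named in the key. Genes of the granulosa, steroidogenesis and cumulus lists lie on or above the line for the most part, up to Cyp11a1 at the left, and most early 2-cell and oocyte transcripts lie under it at high signal.

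Signals below are given for pools 1 and 2 first and pools 3 and 4 second, and a gene is called higher or lower in pools 3 and 4 only where it passed. List members named beyond the first few of each list were picked with their values known. Genes of steroid synthesis had the highest median of the cell type lists. Of 14 tested genes of steroidogenesis and luteal cells, 10 were higher (71.4%, beside 15.6% of all genes), 0 lower and 4 did not pass, with a median log2 difference of 2.90 beside -0.15 over all genes. The filter used the mean over these 4 arrays, so a gene dim in 1 pair was tested only where the other pair was high. This can raise the shares and medians of the lists. With no filter 9 of these 14 were higher, with the same median. Cyp11a1 encodes the side-chain cleavage enzyme that makes pregnenolone from cholesterol in the mitochondrion. It read 1.3, 2.6, 2.3 and 1.9 in wild type, 2.4 and 4.9 in pools 1 and 2, and 1801 and 1828 in pools 3 and 4, which is at least 56.6-fold higher (adjusted p = 0.000229 by limma). On this probe set the 6 other pools were all under the bound. The gene's other probe sets, too dim to test, showed no such step: one read 49.5 and 36.5 against 30.1 and 39.4, and an _x_at one 3.3 and 41.7 against 25.1 and 8.3. Fdx1, the ferredoxin that hands electrons to CYP11A1, read 292 to 587 in wild type, 263 and 205 in pools 1 and 2, and 5391 and 4239.6 in pools 3 and 4 (log2 difference 4.37, SE 0.27, limma adjusted p = 0.000372).

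Scarb1, the HDL receptor that takes up cholesterol ester, read 195 and 450.2 in pools 1 and 2 and 1358 and 1207 in pools 3 and 4, and lost its call when pool 3 was left out. Akr1c18, which inactivates progesterone in luteal cells, read 59.7 and 15.4 against 1969.6 and 1650. Sfrp4, a secreted Wnt antagonist of luteinizing follicles, read 141 and 98.7 against 1638 and 1404. The mitochondrial protein gene Mgarp, Parm1, Hsd17b7 and Npc2 made up the rest of the higher members, with log2 differences of 3.89, 3.88, 1.95 and 1.01. Star, which moves cholesterol into the mitochondrion and defines acute steroid synthesis, read 64.6 to 85.1 in wild type, 70.2 and 83.8 in pools 1 and 2, and 119 and 111 in pools 3 and 4 (log2 difference 0.58, limma adjusted p = 0.195), and did not pass. Ptgfr, Stard4 and Npc1 did not pass either, at 0.13, 0.87 and 0.14.

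Markers of granulosa identity divided. Of 14 tested, 8 were higher, 0 lower and 6 did not pass, with a median log2 difference of 1.64. With no filter on dim probe sets 7 of 17 were higher, with a median of 1.04. The inhibin and activin subunits were all higher. Inhba, the activin beta A subunit, read 3.7 to 7.9 in wild type, 34.8 and 5.4 in pools 1 and 2, and 2516 and 2383 in pools 3 and 4 (log2 difference 7.48, SE 0.78, limma adjusted p = 0.00183). Inhbb read 24 and 40.2 against 492 and 586, and Fst, follistatin, which binds activin, 93.2 and 77.8 against 1289.6 and 1308. Hsd17b1, the granulosa enzyme that makes estradiol from estrone, read 2 to 8 in wild type, 4.4 and 3.1 in pools 1 and 2, and 692 and 729 in pools 3 and 4, at least 22.2-fold higher. Greb1, an estrogen-induced gene, read 88 and 99.2 against 976 and 1104.

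Fshr, the receptor for follicle-stimulating hormone, and the transcription factor gene Gata6 were higher by 1.91 and 1.36 log2 units. Fshr read 61.4 and 19.8 against 150.9 and 114 (wild type 18.3 to 71.3). It passed narrowly (limma adjusted p = 0.0473), and pool 2 was under its bound. The factors that define the lineage did not pass. Foxl2 read 155 and 182 against 189.8 and 187 (wild type 137 to 169), Nr5a1 107 and 73.4 against 180.5 and 180.2 (wild type 58.7 to 127), and Nr5a2 638 and 353 against 956 and 1000.1 (wild type 542 to 1029). Nr5a1 and Nr5a2 missed the threshold by little (limma adjusted p = 0.0536 and 0.057). Nr5a1 passed under 6 alternatives, median centring among them, and a miss does not show that they were alike. Amhr2, Kitl and Gata4 did not pass, at 0.58, 0.75 and -0.48, and Wt1, Lhx9 and Amh were too dim to test. Amh, made by granulosa cells of growing follicles, was under the bound in all 4 mutant pools, at 6.5 and 15.9 and at 14.7 and 10.

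Of 10 tested genes of cumulus expansion and ovulation, 6 were higher, 0 lower and 4 did not pass, with a median log2 difference of 2.20. With no filter on dim probe sets 5 of 15 were higher, with a median of 1.49. The matrix proteoglycan gene Vcan read 13.5 and 11.1 in pools 1 and 2, 390.1 and 449 in pools 3 and 4 and 16.5 to 24.8 in wild type, which is at least 13.1-fold higher. Adamts1, the protease that cleaves versican at ovulation, read 33.9 and 35.3 against 695 and 926 (log2 difference 4.54, SE 0.29, limma adjusted p = 0.000423). Gja1 encodes connexin 43, the gap junction protein of granulosa cells, and on an _x_at probe set read 533 and 366 against 5783 and 4189. The prostaglandin receptor gene Ptger2, the BMP antagonist gene Grem1 and the matrix gene Tnfaip6 were higher too, Tnfaip6 from 56.9 and 29.7 to 107 and 124, with the call lost under 5 alternatives.

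Several other genes of the ovulatory response were dim in all mutant pools. Has2, which makes the hyaluronan of the matrix, read 24.8 and 19.6 against 17 and 26.9, and Ptx3, which crosslinks it, 4.6 and 13.7 against 4 and 3.6. Both were too dim to test, as were Ereg and Sult1e1. Il6, an ovulatory cytokine also too dim to test, was under the bound in the 6 other pools (20.1 and 9.6 in pools 1 and 2) and above it in pools 3 and 4 (52.1 and 39.9), at least 1.42-fold higher. Ptgs2, the prostaglandin synthase induced before ovulation, read 62.5 and 36.6 against 64.3 and 54.9 and missed the threshold (limma adjusted p = 0.61), and so did Btc, Pgr and Cd44. The counts of all 3 lists were smaller without pool 3 (8, 6 and 4 higher in the order steroidogenesis, granulosa, cumulus) and without pool 4 (9, 6 and 4), and larger or equal without pool 1 (11, 12 and 7) and pool 2 (11, 10 and 6).

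The summed signal of each list showed the same order on single arrays. The 14 steroidogenesis genes summed to 3676 to 4711 in wild type, 3509 and 3559.5 in pools 1 and 2, and 28229.9 and 24036 in pools 3 and 4. For 17 granulosa genes the sums were 2942 to 3813, 3229 and 2071, and 12126 and 12059.8. For 15 cumulus genes they were 597 to 866, 1074 and 768, and 7889 and 6592. Pools 3 and 4 lay above the wild type range in all 3. Pools 1 and 2 lay under it for steroidogenesis and on both sides of its edges for the others. The labels name only whole embryos, and the source of these transcripts in pools 3 and 4 was not tested.

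**Figure D4:**
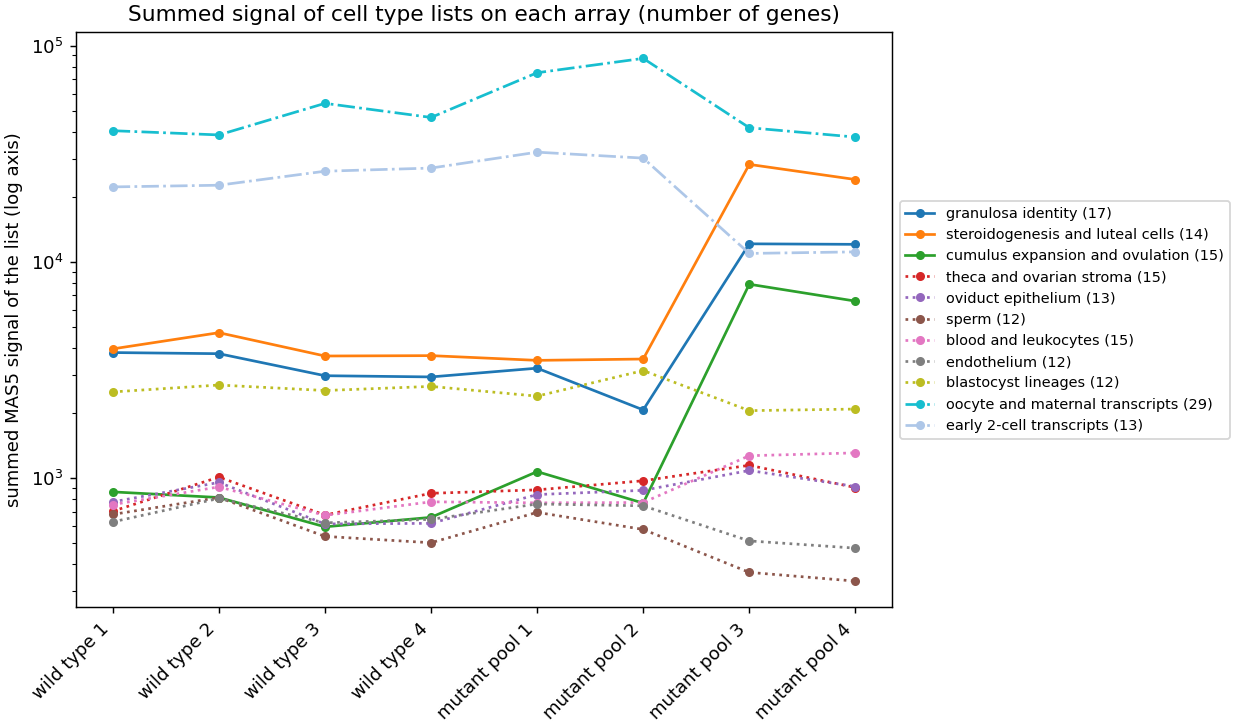
Summed MAS5 signal, on a log axis, of each of 11 lists of cell type markers on each array, with the number of genes on the array in brackets; lines only join the points of a list. Steroidogenesis, granulosa and cumulus sums step up in pools 3 and 4 (steroidogenesis 28229.9 and 24036), the early 2-cell sum steps down (10947 and 11131), and the theca, oviduct, sperm, blood and endothelium sums lie between 335 and 1311 on all 8 arrays.

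Markers of other cells of the ovary and oviduct did not pass. Of 9 tested genes of theca and ovarian stroma, 0 passed in either direction, with a median log2 difference of -0.59. With no filter on dim probe sets 1 of 15 was higher and 0 lower, with a median of 0.51, so the sign of the median depends on the filter. Cyp17a1, the androgen-making enzyme that defines theca cells, was under the bound in all 4 mutant pools, at 19.7 and 21.5 and at 8.9 and 6.3, with wild type at 7.6 to 71.3. Col1a1 and Col1a2, the fibrillar collagen of stroma, read 54.6 and 107 against 36.3 and 61.4 and 55.2 and 66.7 against 95 and 78.9. Of the 9 tested, 4 had a positive and 5 a negative difference. Dcn read 22.9 and 71.4 against 163 and 115 (wild type 5.3 to 80.4) and missed the threshold by little (limma adjusted p = 0.06). Nr2f2 did not pass at 1.94. Des, on the lower side, read 132 and 128 against 78.5 and 40.7 (limma adjusted p = 0.0654). A miss does not show that the pairs were alike. The list summed to 885 and 975 in pools 1 and 2, 1149 and 907 in pools 3 and 4, and 677 to 1013 in wild type, so the groups overlapped. Without pool 1, 2 of its genes were higher and 2 lower, and without pool 2, 2 and 1. Of 6 tested oviduct genes 0 passed. Ovgp1, the secreted oviduct glycoprotein, read 179.9 and 209.5 against 360 and 305 (wild type 86.9 to 222, limma adjusted p = 0.0737) and passed without pool 1 or without pool 2, and Krt7 and Muc1 were under the bound on all 8 arrays.

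Sperm transcripts were dim. Of 3 tested genes 0 passed, and Tnp1, Tnp2 and Smcp were under the bound on every array. Their list summed to 696 and 581 in pools 1 and 2 and 368 and 335 in pools 3 and 4 (wild type 504 to 815). Of 7 tested blood and leukocyte genes 1 was higher. This was Cd52, a surface glycoprotein of lymphocytes, which read 22.9 and 24.5 against 360.4 and 453 and 19.7 to 48.2 in wild type, at least 12.6-fold higher. That is 14.3% of the list, beside 15.6% of all genes. Of the 7 tested, 4 had a positive and 3 a negative difference. Lyz2 read 110 and 115 against 189 and 192 (wild type 83.8 to 126) and Csf1r 134 and 203 against 264 and 264 (wild type 160 to 331). Cd79a, on the lower side, read 96.3 and 69.6 against 39.8 and 30. None of these 3 passed. The members Coro1a, Cd3e, S100a8, S100a9 and Alas2 were under the bound on all 8 arrays, and Ptprc, too dim to test, read 22.3 and 29.2 against 37.1 and 32.3. The blood list summed to 770.5 and 773 in pools 1 and 2, 1272 and 1311 in pools 3 and 4 and 674 to 913 in wild type. Of 7 endothelial genes 0 were higher and 1, the angiopoietin receptor gene Tek, was lower (127 and 133 against 37.5 and 69.9), and the call was lost without pool 3 and without pool 4. The list summed to 761 and 747 against 514 and 476 (wild type 623 to 808), and Vwf and Tie1 were under the bound on all arrays.

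Genes of blastocyst lineages went both ways. Of 8 tested, 2 were higher and 3 lower, with a median log2 difference of -1.14. The keratins of simple epithelia were higher, Krt8 from 86.6 and 168 to 555 and 619 and Krt18 from 89.5 and 149.7 to 416 and 372. The pluripotency factor genes Pou5f1 and Sox2 were lower, Pou5f1 at 1014 and 1797 against 577 and 594 and Sox2 at 135 and 178 against 51.4 and 51.4, as was the trophoblast factor gene Tfap2c. For Sox2 the call was lost without pool 3 and without pool 4, where 0 genes of this list stayed lower.

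The 12 largest higher differences held Cyp11a1, Hsd3b1, S100a6 and Hsd17b1, given above. The others were Aldh1a1, Prss35, Ppic, Cemip, Cpe, Smarca1, Ccn2 and Hao2. Aldh1a1, a retinaldehyde dehydrogenase, read 4.6 to 10.3 in wild type, 2.3 and 1.8 in pools 1 and 2, and 1275 and 1353 in pools 3 and 4, at least 41-fold higher. Cpe, carboxypeptidase E, which trims peptide hormones, read 34.2 to 60.4, 13.7 and 14.2, and 4417 and 4013 in the same order, at least 131-fold higher. A second probe set of Cpe, an _x_at one, read 99.8 and 72.2 against 131 and 134 and missed the threshold (limma adjusted p = 0.169). Cemip, which binds and degrades hyaluronan, read 17 and 4.2 against 2751 and 2677, at least 84.7-fold higher. Of its dimmer probe sets, not tested, one read 12.9 and 5.9 against 99.2 and 74.7 (at least 2.69-fold higher) and the other 32.5 and 25.8 against 18.8 and 27.4.

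Prss35, a serine protease of the ovarian follicle, stood above the bound in wild type. It read 39.4, 33.8, 82.1 and 75.6 in wild type, 2.6 and 1.6 in pools 1 and 2, and 1132 and 1281 in pools 3 and 4. Pools 1 and 2 lay below all wild type pools and pools 3 and 4 above, at least 37.6-fold higher than pools 1 and 2, and its call was lost without pool 4. Smarca1, the SNF2L ATPase of ISWI remodelling complexes, read 2 to 12.9 in wild type, 2.8 and 7.2 in pools 1 and 2, and 1249.8 and 1344 in pools 3 and 4, at least 40.4-fold higher. The cyclophilin gene Ppic and the peroxisomal oxidase gene Hao2 were at least 59.8-fold higher and at least 24.2-fold higher. Ccn2, a matricellular protein induced by mechanical and TGF-beta signals, was at least 24.7-fold higher and lost its call without pool 4.

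Some probe sets were at background on 6 arrays and bright on pools 3 and 4. Among all 45037 probe sets other than controls, 44 of 39 genes read at least 500 in pools 3 and 4 and were under the bound in the 6 other pools. In turn, 0 probe sets were bright in pools 1 and 2 and under the bound in pools 3 and 4. The bounds were unequal, 27.24 and 37.71 in pools 1 and 2 against 14.74 and 16.15 in pools 3 and 4, so 44 and 0 are not like for like. The brightest Slc14a1 probe set read 23.8 and 24.5 in pools 3 and 4, above their bounds but under those of pools 1 and 2. A gene is counted here by any of its probe sets, and the brightest ones of Vim, Sparc, S100a10 and Clu, among others, were above the bound in pool 1. Besides Cyp11a1, Hsd17b1, Aldh1a1, Hao2, Ppic, Smarca1, S100a6, Ccn2 and Vim, the 39 held the matrix and basement membrane genes Sparc, Tgfbi, Col4a5, Tinagl1, Plod2, Mmp11 and Mmp23. They also held Cat (catalase), S100a10, Clu (clusterin), the AP-1 subunit gene Fosl2, the potassium channel gene Kcnma1, the sterol transfer gene Gramd1b and the nuclear noncoding RNA Neat1. The values that chose these genes come from the contrast, so their number is a description.

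Calcium-binding and membrane proteins of the S100 and annexin families were higher almost throughout. Of 12 tested, 10 were higher and 0 lower, with the highest median of the 26 lists in the main fit, 3.37. That rank depended on the setting. Without probe sets ending in _x_at or _s_at, 8 of 11 were higher, with a median of 2.44 beside 2.60 for steroidogenesis. With only the upper 30% of probe sets tested, these 2 medians were 3.37 and 3.78. Anxa2 read 94.8 to 119.5 in wild type, 150.3 and 166 in pools 1 and 2, and 1731 and 1679.9 in pools 3 and 4 (log2 difference 3.43, SE 0.24, limma adjusted p = 0.000523). Its partner S100a10 read 4.2 to 17.2, 59.7 and 32.1, and 1601 and 1513, and Anxa1 15 to 55, 35.8 and 27.2, and 3028 and 2926. Anxa7 and S100a16 did not pass, at -0.21 and 0.56. S100a4, too dim to test, read 19.6 and 4.9 against 139 and 203, at least 5.24-fold higher.

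Intermediate filament genes were uneven. Vim, Krt8 and Krt18 were higher, and the other 5 of 8 tested did not pass, among them the lamin genes Lmna (578 and 868 against 484 and 425) and Lmnb1 (723 and 818 against 407 and 484). Krt19 was too dim to test. Of 22 genes of the actin cytoskeleton 12 were higher and 0 lower, with a median of 1.08. Actb read 1352 to 1650.3 in wild type, 1744 and 1202 in pools 1 and 2, and 6841 and 5084 in pools 3 and 4, and Actg1 612 to 667, 902 and 1067, and 6337 and 5264. Tmsb10 read 1571 and 1648 against 5430.5 and 4453 and Tagln2 194 and 170.2 against 354 and 462; Tmsb10 lost its call without pool 3 and Tagln2 without pool 3 or pool 4. Myl9, too dim to test, read 20.4 and 5 against 146 and 175, at least 4.99-fold higher. The number of actin cytoskeleton genes higher was 7 without pool 3 and 8 without pool 4. The control probe sets for the 3′ end of actin read 1983 and 1750 in pools 1 and 2 and 7344 and 5521 in pools 3 and 4, and those for its 5′ end 154 and 116 against 1044 and 1131.

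Of 24 genes of the extracellular matrix, 10 were higher and 2 lower, with a median of 1.07. The basement membrane collagen gene Col4a1 read 55.5 to 91.4 in wild type, 49.8 and 75.8 in pools 1 and 2, and 1194 and 1132 in pools 3 and 4 (log2 difference 4.24, SE 0.30, limma adjusted p = 0.000535). Sparc read 31.2 and 25.6 against 1472 and 1739 and Timp1, an inhibitor of matrix proteases, 64.8 and 43.6 against 1739.5 and 1757. Fn1, fibronectin, read 308 and 543 against 363 and 351 and did not pass. Perlecan (Hspg2) and the protease gene Mmp2 were lower, at -1.08 and -1.02. The number higher was 7 without pool 3 and 5 without pool 4, with 0 lower. Some genes of this list, such as Vcan, Dcn and Col1a1, stand in another list too.

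Lysosomal genes were higher in 12 of 17 tested and lower in 0, with a median of 2.05. Psap (prosaposin) read 357 and 331 against 2312 and 2452, Grn (progranulin) 842 and 698 against 4884 and 4105, and Hexa 122 and 151 against 811 and 947. Among the proteases, Ctsd read 201 and 204 against 833 and 931, while Ctsb, Ctsa and Ctsl did not pass, at 0.76, 0.84 and -0.29. Lamp1, the membrane protein that marks lysosomes, did not pass at 0.38. Of 18 antioxidant and iron storage genes 10 were higher and 2 lower. Mgst1, a membrane glutathione transferase, read 28.5 to 88.4 in wild type, 56.9 and 26.2 in pools 1 and 2, and 2924 and 2594 in pools 3 and 4 (log2 difference 6.16, SE 0.40, limma adjusted p = 0.000423). Txn1, thioredoxin, read 285 to 483, 129.6 and 63.8, and 3841 and 3722, so pools 1 and 2 were below all wild type pools. Sod2 and Gpx3 were the lower members, and Gpx1 and Fth1 did not pass, at 0.51 and 0.31. The number of antioxidant genes higher was 4 without pool 3 and 5 without pool 4, with 0 lower.

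Immediate early genes, which cells transcribe quickly when stimulated, were higher in 10 of 14 and lower in 1, with a median of 2.28. Fos read 27.8 to 63.7 in wild type, 78.1 and 128 in pools 1 and 2, and 3489 and 3202 in pools 3 and 4 (log2 difference 5.06, SE 0.31, limma adjusted p = 0.000372). Jun read 45.4 and 41.5 against 442 and 503 and Egr1 189.7 and 432 against 2275 and 2551. Atf3, Fosb and Klf6 did not pass, and Klf4 was lower at -1.40. Of 7 tested genes of MHC class I presentation 5 were higher, B2m from 916 and 968 to 2873 and 2709.5 and H2-K1 from 295 and 363 to 644 and 813, and 0 of the 7 passed without pool 3 or without pool 4. Psmb8 and Erap1, too dim to test, were at least 2.59-fold higher and at least 2.1-fold higher.

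Genes of cholesterol synthesis and uptake showed no common direction. Of 16 tested, 4 were higher and 2 lower, with a median of 0.18 that turned negative under 4 alternatives. Fdps was higher (79.5 and 38.1 against 204 and 229), with the call lost without pool 3 and without pool 4. The squalene enzymes Sqle (1253 and 1040.2 against 535 and 706) and Fdft1 (1764 and 1775 against 994 and 1074) were lower, and Hmgcs1 did not pass (6926 and 11366 against 5265 and 5300.2). Sqle lost its call without pool 3 and without pool 4, where 1 gene of the list was higher and 0 were lower.

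**Figure D5:**
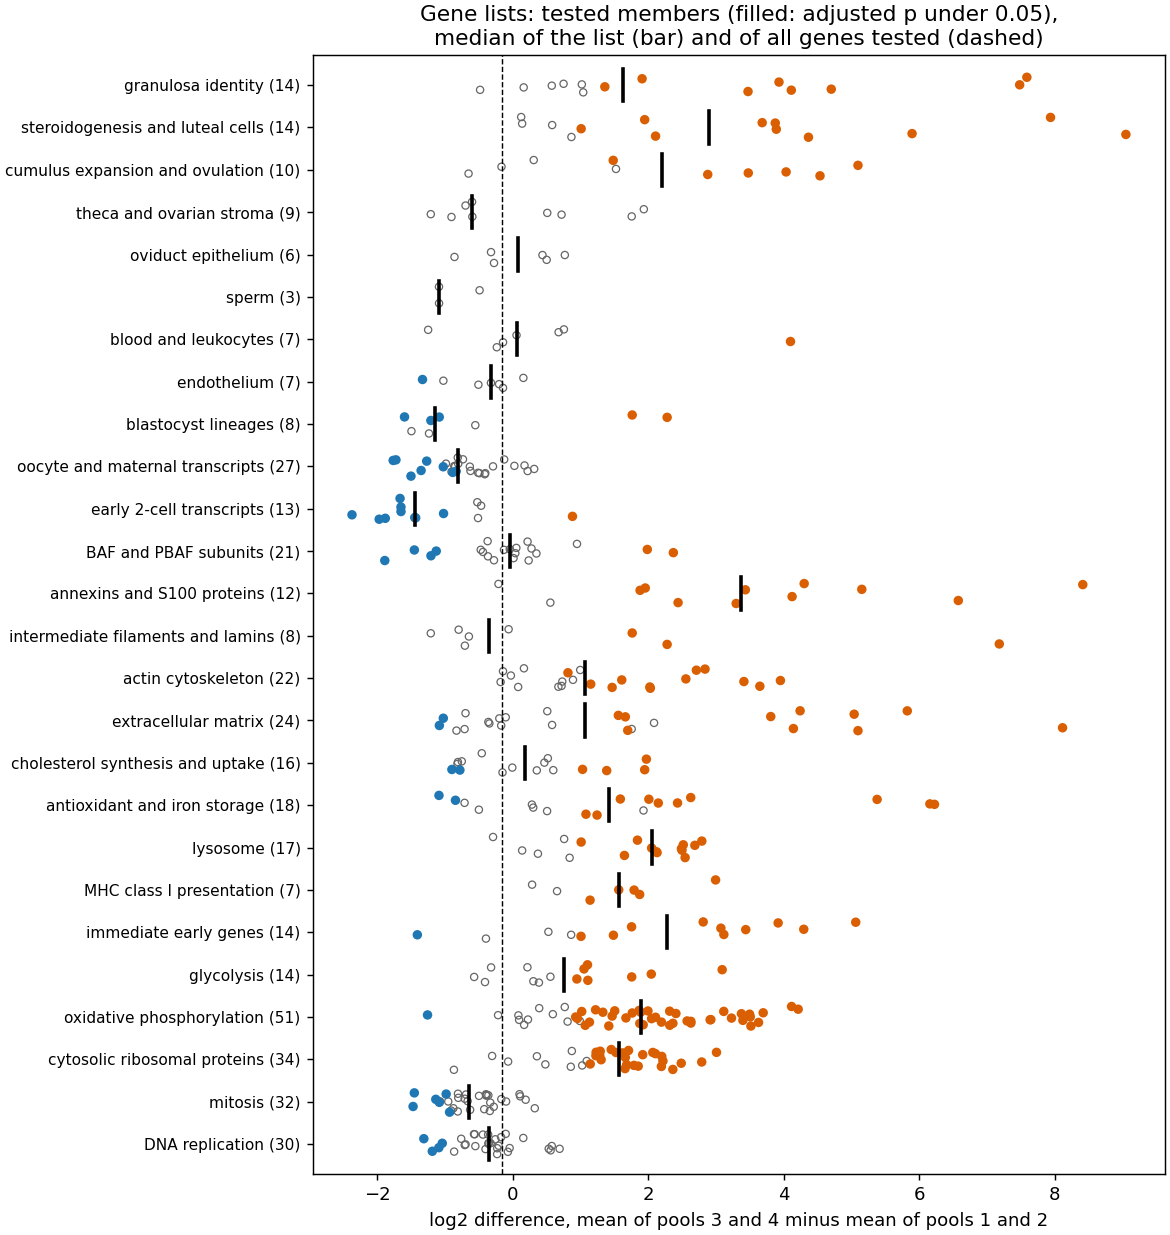
Log2 difference of pools 3 and 4 minus pools 1 and 2 for the tested members of 26 gene lists; filled points passed at a limma adjusted p under 0.05 (orange higher, blue lower), open points did not, the bar is the list's median and the dashed line the median of all genes tested (-0.15). Annexins and S100 proteins, steroidogenesis, immediate early, cumulus and lysosomal genes had the highest medians (3.37, 2.90, 2.28, 2.20 and 2.05), and early 2-cell transcripts the lowest (-1.44).

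Genes of energy metabolism and translation were higher in large numbers. Of 51 subunits of oxidative phosphorylation, 40 were higher and 1, Cox8a, was lower, with a median log2 difference of 1.89. Ndufa1, a subunit of complex I, read 485 to 751 in wild type, 1280.3 and 1176 in pools 1 and 2, and 2437 and 2735 in pools 3 and 4, while Cox6a1 and Atp5g1 did not pass, at 0.60 and 0.23. Atp5j, of the ATP synthase, read 189 to 361 in wild type, 218 and 226 in pools 1 and 2, and 2561 and 2489 in pools 3 and 4. The number higher was 25 without pool 3 and 24 without pool 4, and Ndufa1 lost its call in both.

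Of 34 cytosolic ribosomal proteins 25 were higher and 0 lower, with a median of 1.58. Rps3 read 1429 to 2506 in wild type, 2588 and 1209 in pools 1 and 2, and 7262 and 6174 in pools 3 and 4. Rpl11 read 867 to 1181, 1692 and 877, and 2886 and 2841, and Rplp0 did not pass, at 4133 and 3379.7 against 5357 and 4293. Pool 2 read below pool 1 for all of Rps3, Rpl11 and Rplp0, so the pair was not uniform. The number higher was 5 without pool 3 and 13 without pool 4; Rps3 lost its call without pool 3 and Rpl11 without either. Ribosomal protein genes have many near-identical pseudogenes, and their probe sets can share signal with them. Of 14 glycolysis genes 7 were higher and 0 lower. Ldha read 276 and 416 against 1309 and 1497 and Aldoa 695 and 945 against 1989 and 1425, and Ldhb, the lactate dehydrogenase subunit abundant in eggs, did not pass, at 6789 and 11566 against 7471 and 5989. The number higher was 2 without pool 3 and 1 without pool 4; Aldoa lost its call in both and Ldha without pool 4.

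Transcripts of the egg and the early embryo lay on the lower side. Of 13 tested early 2-cell transcripts, genes switched on when the embryo's genome is first read, 9 were lower, 1 higher and 3 did not pass, with a median log2 difference of -1.44. Zfp352, a zinc finger gene of the 2-cell embryo, read 2722, 2315, 4236 and 4179.6 in wild type, 6477 and 9790.2 in pools 1 and 2, and 1408 and 1691 in pools 3 and 4 (log2 difference -2.37, SE 0.29, limma adjusted p = 0.00297). Pools 1 and 2 lay above all wild type pools and pools 3 and 4 below them. Usp17la, a deubiquitinase gene, showed the same order, with 2402 to 4342, 6108 and 6469, and 1829 and 1601. Tcstv1 read 308 to 1324, 1258 and 1084, and 306 and 292, and Ubtfl1 2662 to 3022, 2232 and 1666, and 739.7 and 694, so for Ubtfl1 all 4 mutant pools lay below wild type.

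The heat shock genes Hspa1a and Hspa1b, among the earliest genes transcribed, were lower, at -1.44 and -1.02. Tdpoz1 read 914 and 710.3 against 256 and 255 and Tcstv3 962 and 975 against 311 and 308, and both lost their call without pool 3 and without pool 4. Eif1ax, a translation initiation factor that marks genome activation, was the member that went the other way. It read 1439.7, 1274, 1373 and 1326 in wild type, 589.5 and 527 in pools 1 and 2, and 990.5 and 1069 in pools 3 and 4 (log2 difference 0.88, SE 0.24, limma adjusted p = 0.0364), so all 4 mutant pools were below wild type and pools 1 and 2 the lowest. The call of Eif1ax was lost under 5 alternatives, leaving out pool 3 or pool 4 among them. Pramel6 and Pramel7 did not pass, and pool 2 was as low there as pools 3 and 4 (Pramel6 1271 and 419.6 against 492 and 535). The 13 genes summed to 32157 and 30184 in pools 1 and 2, 10947 and 11131 in pools 3 and 4, and 22218 to 27151 in wild type. The number lower was 4 without pool 3 and 3 without pool 4.

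Of 27 tested oocyte and maternal transcripts, 8 were lower, 0 higher and 19 did not pass, with a median of -0.80. That is 29.6% lower, beside 13.7% of all genes. Oosp1, a secreted protein of the egg, read 6698, 5703, 8216 and 5880.4 in wild type, 21369 and 19965 in pools 1 and 2, and 6936 and 5360.5 in pools 3 and 4 (log2 difference -1.76, SE 0.25, limma adjusted p = 0.00486). Here pools 3 and 4 were at or just under wild type levels and pools 1 and 2 far above them. Bmp15, a growth factor by which the egg acts on granulosa cells, read 1886 to 2832, 4283 and 5518, and 1482 and 1470. Its partner Gdf9 read 1119 to 1925, 3516 and 5514, and 2877 and 2854 and did not pass, with all 4 mutant pools above wild type.

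Genes of the zona pellucida, the coat of the egg, differed among themselves. Zp1 read 405 and 566 against 237 and 167 and Zp3 795 and 893 against 437 and 514, both lower, and each lost its call without pool 3 and without pool 4, while Zp2 did not pass (948 and 1776 against 1019.8 and 936). Wee2 (an oocyte kinase), Kit, Dppa3 and Btg4 were the other lower members, at -1.50, -1.35, -1.02 and -0.88. For some maternal transcripts all 4 mutant pools lay above wild type. Zar1, an egg RNA-binding protein needed after fertilization, read 337 to 411 in wild type, 2066 and 2819.5 in pools 1 and 2, and 2439 and 2483 in pools 3 and 4 (log2 difference 0.03, SE 0.26). H1f8, the oocyte linker histone, read 49.1 to 109, 292 and 586, and 442 and 494. Nlrp5, of the subcortical complex, read 1591 and 2665 against 2211 and 1618 (log2 difference -0.12), and its sign turned under quantile normalization and median centring. The 29 genes on the array summed to 74868 and 87219 in pools 1 and 2, 41703 and 37757 in pools 3 and 4, and 38632 to 54059 in wild type, so pools 3 and 4 lay in or next to the wild type range. The number lower was 20 without pool 1, 13 without pool 2, 3 without pool 3 and 2 without pool 4.

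The 12 largest lower differences were smaller than those above. Slc14a1, a urea transporter, read 749, 419, 901 and 893 in wild type, 692 and 1156 in pools 1 and 2, and 23.8 and 24.5 in pools 3 and 4 (log2 difference -5.21, SE 0.34, limma adjusted p = 0.000444), 37-fold lower. Its second probe set was lower too (log2 difference -4.57). Wild type lay far above pools 3 and 4 here, as it did for Il31ra (181 to 268, 314 and 319.7, and 40.6 and 43.2), Itgb1bp1, an integrin-binding protein (738 to 1449.7, 844 and 1081, and 112 and 159), and Tbx19 (167 to 245, 209 and 185, and 24 and 37.6).

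In others pools 1 and 2 stood above wild type. Ddit3, the stress-induced factor CHOP, read 13.4, 39.5, 112 and 116 in wild type, 562 and 428 in pools 1 and 2, and 84.3 and 66.3 in pools 3 and 4. A dimmer Ddit3 probe set, not tested, read 14.6 and 38.6 against 40.6 and 34.3. Car6, a secreted carbonic anhydrase, read 62.8 to 95, 365 and 421, and 52.1 and 60.3. The lens filament gene Bfsp1 read 744, 481, 2.7 and 7.1 in wild type, 1956 and 2216 in pools 1 and 2, and 214 and 231 in pools 3 and 4, so wild type itself ran from under the bound to 744, and the call was lost in the fit over all 8 arrays. Prss2, Syndig1, Doxl1, 1600014C23Rik and Tex26 completed the 12, with log2 differences of -3.42, -3.37, -3.16, -3.05 and -2.81, and Tex26 read 355 to 564 in wild type, above all mutant pools. The 3 other Prss2 probe sets were _x_at ones too dim to test. One read 74.1 and 12.2 against 11.1 and 15.9, so the pairs overlapped. The others, under the bound in all 4 mutant pools, read 10.6 and 3.6 against 8.5 and 1.4 and 5.8 and 17.8 against 5.1 and 1.6.

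The targeted gene did not differ between the pairs beyond the spread inside them. Smarca4 read 796, 632, 612 and 661 in wild type, 388 and 201 in pools 1 and 2, and 273 and 291 in pools 3 and 4 (log2 difference 0.02, SE 0.36, limma adjusted p = 0.98). All 4 mutant pools were below all wild type pools on this probe set, and pools 3 and 4 lay between pools 1 and 2. The second probe set read 451 and 146 against 254 and 258 (limma adjusted p = 0.998). Its wild type signals were 194 to 303, so the mutant pools spanned that range. The labels used here do not place these probe sets within the transcript or the deleted region, and the small difference of the brighter one changes sign with the scaling.

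Other subunits of BAF and PBAF complexes differed in both directions. Of 21 tested, 2 were higher and 4 lower, with a median of -0.04 beside -0.15 over all genes, and positive with arrays centred on their medians. Smarcd3 and Smarcd1, alternative BAF60 subunits left out as too dim, were under the bound in pools 1 and 2. Smarcd3 read 0.9 to 14.7 in wild type, 3.6 and 18.1 in pools 1 and 2, and 217 and 190.5 in pools 3 and 4, at least 6.35-fold higher, and Smarcd1 30.6 to 73.1, 19.9 and 16.4, and 54.1 and 50.4, at least 1.63-fold higher. With no filter on dim probe sets 3 of 25 subunits were higher and 3 lower. Among the 21, 9.52% were higher and 19.05% lower, beside 15.6% and 13.7% of all genes. The core subunit genes Smarcb1 and Smarcc1 were higher, Smarcb1 from 149 and 160.1 to 688 and 927 and Smarcc1 from 201 and 102 to 565 and 571, with wild type at 410.1 to 782 and 186 to 292. Smarca2, the alternative ATPase BRM, read 841 to 1407 in wild type, 1614 and 1979 in pools 1 and 2, and 713 and 846 in pools 3 and 4, and was lower. Arid1a, a large targeting subunit, was lower as well (1518 and 1641 against 576 and 581), as were Arid2 and Bcl7c. The calls of Smarca2 and Arid1a were lost without pool 3 and without pool 4, where 0 subunits were higher and at most 1 was lower.

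Genes of cell division were lower or did not pass. Of 32 mitosis genes 6 were lower (18.8%, beside 13.7% of all genes) and 0 higher, with a median of -0.64. The 6 were Aurkb, Bub1, Spc25, Ube2c, Top2a and Mki67, with log2 differences from -1.47 (Top2a) to -0.93 (Mki67). The number lower depended on the scaling and the filter. It was 2 of 32 with arrays centred on their medians, where 1083 of all genes were lower. It was 13 with arrays centred on the 75th percentile and 2 with no filter on dim probe sets. Cdk1, the mitotic kinase, read 2752 to 3295 in wild type, 3002 and 1393 in pools 1 and 2, and 942 and 1009 in pools 3 and 4, and Plk1 169 and 123 against 95.5 and 91.1; neither passed. Of 30 DNA replication genes 4 were lower and 0 higher, with a median of -0.35, and the share lower, 13.3%, was near that of all genes. The 4 were the origin recognition genes Orc1, Orc2 and Orc6 and the nucleotide reductase gene Rrm2. The helicase gene Mcm5 read 1300.5 to 1736 in wild type, 581 and 715 in pools 1 and 2, and 559 and 454 in pools 3 and 4, below wild type in every mutant pool. For both lists 0 genes were lower without pool 3 or without pool 4, and the numbers were 14 and 6 without pool 1 and 20 and 14 without pool 2.

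A gene above stands for its brightest tested probe set, and others of the same gene did not always follow. For Scarb1, Hsd17b7, Gja1, S100a10 and Smarcb1, among others, the name of that probe set ends in _x_at, as for Vim, so it can bind other transcripts. Of 1284 other tested probe sets of higher genes, 610 passed in the same direction, 412 had the same sign without passing, 248 had the opposite sign without passing and 14 passed in the opposite direction. For 1294 other probe sets of lower genes the numbers were 548, 618, 99 and 29.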

How the data were processed

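Total RNA of 8 pools of embryos was labelled and hybridized to Affymetrix arrays of 45101 probe sets. The deposited values are linear signal intensity per probe set from MAS5, per the submitters' processing notes, which name no version. On every array the 2% trimmed mean of the deposited values was 150.001. MAS5 works on each array alone, sets a mismatch probe against each probe and scales arrays to one target, so low values are noisy and a rise of many genes lowers others. Values under 1 were set to 1 before log2.

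The 64 control probe sets were left out of the tests, and 22518 probe sets, 50% of the rest, with the highest mean over the 4 mutant arrays were tested (mean log2 of at least 5.36). Pools 3 and 4 were compared with pools 1 and 2 by limma 3.58.1 in R 4.3.3, with an intensity trend and Benjamini-Hochberg adjustment over all tested probe sets, at 0.05. No 2 arrays were identical. With 2 pools a side, the number of arrays limits the precision. On simulated data with 22518 probe sets, 5 of 71 changes of 1 log2 unit, 43 of 67 of 2 and 57 of 62 of 4 were recovered, and 7 of 112 calls were false. Only these 71, 67 and 62 probe sets were changed there, while 27.3% of probe sets were called in the data. The adjustment depends on how many probe sets differ, so these recovery rates do not carry over to the comparison made here.

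Platform annotation gave 34945 probe sets 1 symbol, 932 several and 9160 none. Of these identifiers 34741 matched RefSeq and 0 symbols changed. A gene is represented by its brightest tested probe set, 11906 genes in all. Named genes were the 4 markers, Smarca4, the 12 largest differences each way, the first 5 of each cell type list and the first 3 of each other list; further list members in the text were chosen after their values were seen. The members, the 26 lists and the background bound were chosen with earlier results of these data known. Alternatives changed the scaling, the filter, the floor, the variance model, the probe sets used and the arrays in the fit. Tables were handled with pandas 2.3.3 in Python 3.11.15.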

Additional observations from a re-analysis of the deposited data

Results flagged for a closer look

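Some genes had 1 array far from the other 3 of its labelled group, measured as the gap to the nearest array over the range of all 4. About 1 in 20 groups passes this by chance, and many genes were looked at. Nr2f2, a stromal transcription factor, read 6.5 in mutant pool 1 and 107.9 to 129.2 in the other mutant pools, so its log2 difference between the pairs rests on pool 1. Zp2 of the zona pellucida read 1776.1 in mutant pool 2 and 936.2 to 1019.8 in the others. The lysosomal protease gene Ctsa read 147.8 in mutant pool 2 and 496.6 to 531.8 in the others. The endothelial gene Pecam1 read 48.6 in mutant pool 2 and 12.5 to 14.9 in the others, and 12.4 in wild type pool 1 beside 35.4 to 43.3. In wild type pool 2, the sperm gene Odf1 read 63 beside 8.7 to 9.7 and Ndufa1 read 484.9 beside 741.6 to 750.7.

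Control probe sets outside the tests also stood above their wild type range. The hybridization controls averaged 8504.15 in pool 1, 5951.34 in pool 2 and 2191.59 in pool 3, beside 1323.76 to 2181.08 in wild type. The control probe set for the B2 repeat read 33763.2 in pool 1 and 25331.3 in pool 2, beside 7259.1 to 11528.6. The probe set for the 3′ part of 18S ribosomal RNA read 5153.8 in pool 1 and 9221.2 in pool 2, beside 2459.7 to 4232.7. Their part in the differences between the pairs was not tested.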

How the results depend on the processing

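No paired analysis was possible because pools 3 and 4 and pools 1 and 2 share no replicate number. Of 1361 comparisons of 100 named genes under 14 alternatives, 1236 kept direction and side of the threshold, 68 lost the call, 40 gained one and 17 changed sign. Leaving out 1 array gave 1221 to 5534 probe sets higher and 351 to 5871 lower. The number of genes higher in pools 3 and 4 was then 708 to 3212, the number of genes lower in pools 3 and 4 was 189 to 3227, and the median log2 difference was -0.21 to -0.15; the lone array is assumed to vary like the others. Centring on medians gave 1083 genes lower and a median of -0.049, the 75th percentile a median of -0.35, and no filter on dim probe sets 1827 probe sets and 983 genes lower and a median of -0.28. Of called probe sets, 61.6% were higher with no filter, 77% without pool 3 and 77.7% without pool 4. Lists with a positive median numbered 16 of 26 and 14 to 17 under the alternatives.

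Genes that changed sign were these. Quantile normalization gave -0.14 for Smarca4, -0.019 for Foxl2, 0.027 for Nlrp5 and 0.42 for Ldhb. The 75th percentile gave -0.14 for Smarca4, median centring 0.022 for Nlrp5, and the mean of probe sets -0.043 for Ctsa. With 1 array left out, the log2 difference ran from -0.46 to 0.49 for Smarca4, -0.073 to 0.70 for Ptgs2, -0.22 to 4.09 for Nr2f2, -0.73 to 0.094 for Kdr, -0.49 to 0.25 for Nlrp5, -0.86 to 0.043 for Zp2, -0.081 to 1.77 for Ctsa and -0.17 to 0.63 for Atp5g1. It turned without pool 1 for Nr2f2 (-0.22) and without pool 2 for the others, and without pool 4 for Smarca4 (-0.031) and Nlrp5 (0.10). The cause of these changes was not tested.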
